A study of Mus musculus with 18 samples.

Results

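The genes described here encode the proteins of the cytosolic ribosome. They were taken by symbol (Rpl or Rps followed by a number, plus Rplp0, Rplp1, Rplp2 and Rpsa) and kept when at least 3 libraries held 10 or more counts. The symbols matched 84 of the 23365 rows of the deposited count table, and 81 of these met the count minimum. The 3 that did not were Rpl26 (4 counts in all libraries together), Rpl39l (21 counts) and Rpl10l (0 counts). Of the 81 genes, 80 also passed the low-count filter of the test across 13405 genes. Rpl3l, a paralog known from muscle, did not.

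RNA was sequenced from CD71+/TER119+ erythroblasts, immature red cells sorted by flow cytometry from mouse spleen. The mice differed in Klf1, the gene of a zinc finger transcription factor of red cell precursors, and 5 genotypes were made from its wild-type (WT), missense (D45, from MommeD45) and knockout (KO) alleles. WT/WT, WT/D45 and D45/D45 had 3 libraries each, WT/KO had 5 and D45/KO had 4. The series describes D45/KO, the compound heterozygote, as having haemolytic anaemia with an enlarged spleen, so its cells came from an anaemic spleen and those of the other genotypes from spleens not so described. The labels used here name no age, strain or treatment, and no cell type to which either allele is restricted.

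A ribosome is built from ribosomal RNA and one copy of nearly every ribosomal protein, so cells make these proteins in step. Their mRNAs usually begin with a C followed by a run of pyrimidines, the 5′ terminal oligopyrimidine (TOP) motif, through which mTOR signalling and LARP1 control their translation. Erythroblasts need many ribosomes to make haemoglobin, and loss of 1 copy of a ribosomal protein gene such as RPS19 causes Diamond-Blackfan anaemia, in which red cell production fails.

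The sequences around the annotated transcript starts are shown for genes named again below. RefSeq start sites (GRCm38.p6) were found for 60 of the 81 genes, with 72 starts. Each sequence runs from 20 bases before to 20 bases after the annotated start, 5′ to 3′ on the gene's strand, and capitals mark a run of at least 5 pyrimidines that opens with C within 5 bases of the start. Rpl27a lies at chr7:109519175-109519214 (plus strand), Rpl31 at chr1:39367831-39367870 (plus), Rpl38 at chr11:114668560-114668599 (plus), Rps9 at chr7:3704021-3704060 (plus), Rps2 at chr17:24720043-24720082 (plus), Rpl39 at chrX:37085203-37085242 (minus) and Rpl41 at chr10:128549149-128549188 (minus). The set pairs Rpl27a, the gene that followed the family most closely, with 6 genes that departed from it or stood low in D45/KO.
Rpl27a: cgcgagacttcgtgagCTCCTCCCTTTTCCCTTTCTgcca
Rpl31: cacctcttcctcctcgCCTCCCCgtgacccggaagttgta
Rpl38: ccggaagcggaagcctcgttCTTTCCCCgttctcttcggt
Rps9: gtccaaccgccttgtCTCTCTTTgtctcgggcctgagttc
Rps2: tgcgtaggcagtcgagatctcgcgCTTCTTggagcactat
Rpl39: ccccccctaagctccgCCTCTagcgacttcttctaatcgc
Rpl41: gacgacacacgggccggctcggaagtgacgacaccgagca

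The run was 20 bases long in Rpl27a and 5 bases long in Rpl39, and this window of Rpl41 held none. Among genes that also followed the family closely, Rpl19 had 5 bases at each of 2 starts and Rpl23 had no run. Whether the run goes with following the family was not tested. Runs further than 5 bases from the annotated start were not sought. Over the family 31 of 72 starts (43.1%) had such a run, beside 18.3% of all 32851 starts in the table. The ETS-type motif GGAAGT was found on either strand between 250 bases before and 50 bases after 44.4% of the ribosomal protein starts and 23.8% of all starts. The KLF-type motif CCNCNCCC was found at 58.3% against 49.5%, the shorter CACCC, which can lie within it, at 54.2% against 57.5%, the GATA-type AGATAA at 6.94% against 11.2%, and the TATA-type TATAAA at 9.72% against 13.6%. These are letter matches in 300-base windows, not measured binding.

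Libraries held 9.36 to 56.32 M counts, and levels are given in CPM, counts scaled to a common library total, with the total adjusted for composition by TMM. Klf1 was present in every genotype, at 452 to 1046 CPM in WT/WT and 158 to 834 CPM in WT/KO. Gene-level counts do not tell the alleles apart, so this does not check the genotypes. Erythroid markers such as Alas2 had a mean log2 CPM of 9.99 to 12.75 across the libraries. The libraries fell into 2 sets by 13 B cell markers such as Cd79a: their mean log2 CPM was 3.97 to 7.11 in 9 libraries and -1.15 to 0.48 in the other 9. The high set held 3 of the 4 libraries of D45/KO, 3 of the 5 of WT/KO and 1 of each remaining genotype. This imbalance touches every value below, and in sorted bulk RNA more cells of a type and more RNA per cell cannot be told apart.

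Ribosomal protein genes took 0.88% to 5.38% of the counts of a library. In WT/WT the share was 4.30%, 1.17% and 0.88%, in WT/D45 5.26%, 0.91% and 2.16%, and in D45/D45 3.61%, 1.43% and 1.36%. In WT/KO it was 5.38%, 3.35%, 2.456%, 1.004% and 1.961%, and in D45/KO 2.56%, 2.47%, 1.75% and 2.01%. All 5 genotypes overlapped, and the range was narrowest in D45/KO. Where B cell markers were high the share was 1.75% to 5.38%, and where they were low it was 0.88% to 2.16%. In the low set globin mRNAs took 5.87% to 23.4% of counts in place of 2.28% to 9.20%. With the globin counts left out of the total, the shares were 1.82% to 5.66% and 1.10% to 2.37%. These shares are not adjusted for composition. The TMM factor was 1.095 to 1.935 in the high set and 0.366 to 0.955 in the low set. In TMM-scaled log2 CPM the median difference, high minus low, was 0.057 over 76 ribosomal protein genes averaging at least 2 CPM. It was 0.035 over all genes at that level.

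**Figure D1:**
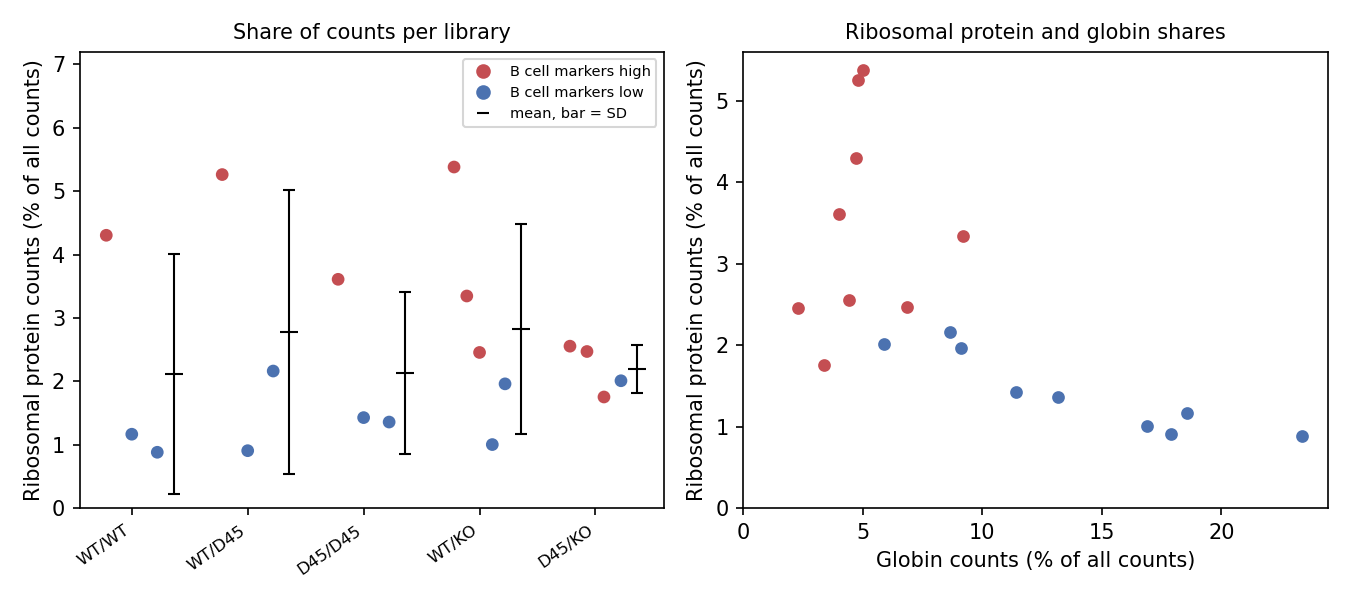
Share of all counts taken by the 81 ribosomal protein genes (y axis, percent) in each of 18 libraries, by genotype with the mean and SD beside the points (left) and against the share of the globin genes (right). Red points are libraries with high B cell markers (1.75% to 5.38%) and blue points those with low ones (0.88% to 2.16%); the 4 D45/KO libraries lie between 1.75% and 2.56%.

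Both ribosomal subunits moved together between libraries. Counts of the small subunit genes were 0.66 to 0.78 times those of the large subunit genes in every library. This ratio was 0.69 to 0.78 (median 0.756) in the B-marker-high and 0.66 to 0.74 (median 0.708) in the low libraries. After the median log2 CPM of the family in a library was subtracted from each gene, the SD of this relative level over 18 libraries had a median of 0.25 over the 76 genes with a mean of at least 2 CPM. The same measure had a median of 0.80 over all 9474 genes at that level, for which the family median is only an outside reference. Of the 76 genes, 27 had an SD under 0.2, 39 had one from 0.2 to under 0.4, and 10 had one of 0.4 or more.

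Rpl27a, a protein of the large subunit, followed the family most closely, with an SD of 0.08 on the log2 scale. Its level was 280, 187 and 278 CPM in WT/WT, 135 to 325 CPM in the 3 WT/D45 libraries, 258, 221 and 244 CPM in D45/D45, 323, 236, 185, 194 and 228 CPM in WT/KO, and 203, 212, 158 and 229 CPM in D45/KO. The genotypes overlapped throughout. Rpl19 (SD 0.09) and Rpl23 (SD 0.12) were the next closest.

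By mean level the leading genes were Rplp0 (902 CPM), the scaffold of the stalk that recruits translation factors, Rpl41 (716 CPM) and Rpl4 (715 CPM). Per kilobase of transcript the order of these 3 changed, with Rpl41 at 1230, Rplp0 at 664 and Rpl4 at 465 CPM per kb. At the other end, 5 genes averaged below 2 CPM. Rpl3l was at 0.14 CPM, and its highest library, WT/D45 replicate 2, had 1.39 CPM. Rps4y2 averaged 0.50 CPM and had no count in 7 libraries.

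Rps27, Rpl30 and Rpl34 encode proteins of the cytosolic ribosome, yet they averaged 0.56, 0.80 and 1.07 CPM, and Rpl26 had 4 counts in all. Rps27 was at 0 to 1.40 CPM across libraries, with 0.92, 0.95 and 1.40 in WT/WT and no value above 0.63 in WT/D45 or above 0.43 in D45/D45. Of the 50-base words in the transcript of Rps27, 98.6% also occur in the transcript of another gene (GENCODE M21), and the figures were 47.8% for Rpl30, 37.9% for Rpl34 and 71.3% for Rpl26. Rpl9, at 239 CPM, shared 93.3%. Counting rules for reads that match several places were not given in the sources used here, and the levels of such genes are uncertain.

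None of the 80 genes passed an adjusted p of 0.05 in edgeR's quasi-likelihood test in any of 6 comparisons. Over all 13405 genes the share that passed was 0.172% in D45/KO against WT/KO, 0.619% in D45/KO against WT/WT, 0.00746% in D45/KO against D45/D45, and 0% in each of D45/D45, WT/D45 and WT/KO against WT/WT. At an unadjusted p under 0.05 the counts of lower ribosomal protein genes were 0, 6 and 6 in the first 3 and 0, 0 and 1 in the last 3, and none was higher. For the 2 comparisons with 6 genes, 4.16% (D45/KO against WT/WT) and 1.13% (D45/KO against D45/D45) of all genes were lower at that p.

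The median log2 fold change of the family was -0.24 in D45/KO against WT/KO, -0.23 against WT/WT and -0.26 against D45/D45. The medians of all tested genes were -0.15, 0.07 and 0.06. In these comparisons 10, 19 and 8 of 80 genes were above 0, beside 40.8%, 54.2% and 54.1% of all genes. The median SE of a single gene was 0.29 to 0.33, larger than these medians, and the 3 comparisons share the D45/KO libraries. Without D45/KO the family's medians were 0.03 in D45/D45, 0.07 in WT/D45 and 0.02 in WT/KO against WT/WT, beside 0.01, 0.10 and 0.26 over all genes. The 10 macrophage markers tested had medians of -0.10, 1.45 and 2.62 in D45/KO against WT/KO, WT/WT and D45/D45, with 3, 9 and 10 of 10 above 0 and none called. At an unadjusted p under 0.05 in edgeR, 9 of the 10 were higher against D45/D45, beside 151 of all 13405 genes. None of the markers was higher at that p against WT/KO or WT/WT. Summed, the macrophage markers reached 135.1 to 3439 CPM in D45/KO, 171.5 to 3316 in WT/KO, 304.2 to 838.4 in WT/WT and 121 to 275.1 in D45/D45. The 9 erythroid markers tested had medians of 0.16, -0.30 and -0.55 with no calls, and all 9 were below 0 against D45/D45. The 10 neutrophil markers tested had medians of 1.70, -1.365 and 0.47 with no calls. The 9 T and NK cell markers tested had medians of -1.81, -0.06 and 0.25, and 1 of them was called, lower in D45/KO against WT/WT. The part of these cells in the family's medians was not tested. D45/KO had the lowest mean of the 5 genotypes for 57 of 80 genes, and WT/WT for 16. That count was not made over all genes, and members move together, so they do not count separately.

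**Figure D2:**
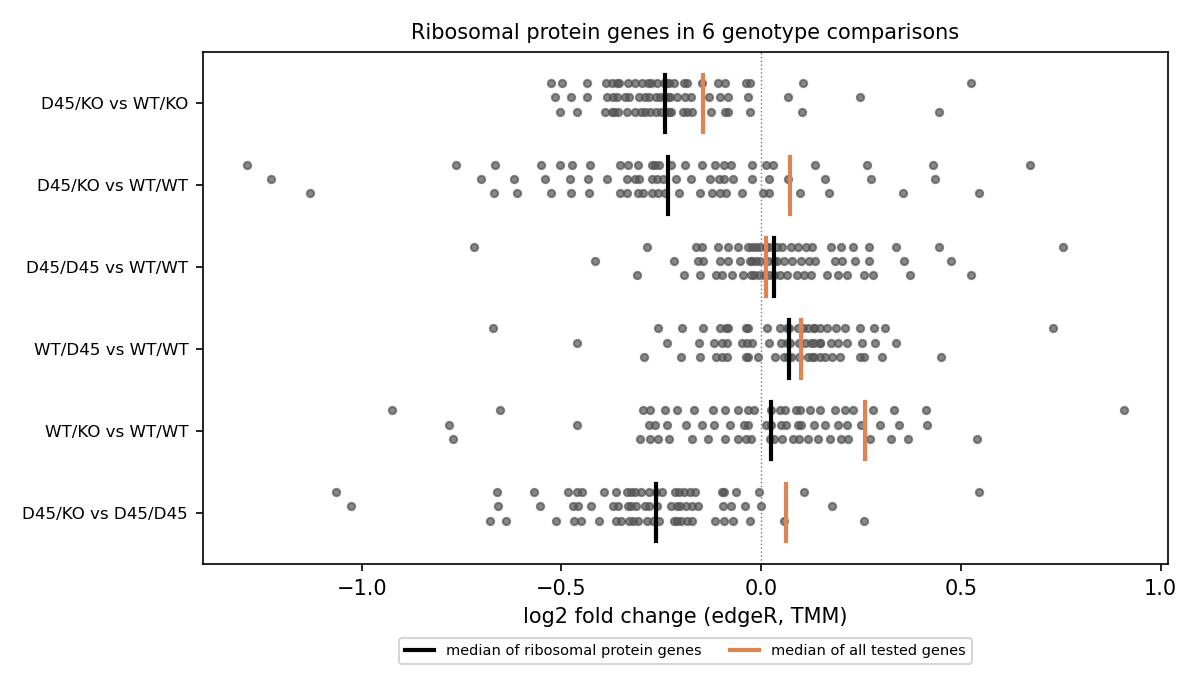
Log2 fold change (x axis) of each ribosomal protein gene with a mean of at least 2 CPM (76 grey points) in 6 comparisons (rows). Black bars are the median over all 80 tested members and orange bars the median over all tested genes; the black bars lie at -0.24, -0.23 and -0.26 in the 3 comparisons of D45/KO.

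The lower family median of D45/KO was seen among B-marker-high libraries and not among the low ones, where D45/KO had 1 library. In the high set the log2 CPM of the median member was 7.30 to 7.73 in 3 D45/KO libraries and 7.49 to 8.34 in the other 6. In the low set it was 7.67 in the single D45/KO library and 7.07 to 7.92 in the other 8. With 1 library each of WT/WT and D45/D45, fits within the high set gave medians of -0.30, -0.48 and -0.41 against WT/KO, WT/WT and D45/D45, and fits within the low set gave 0.05, 0.07 and 0.02, every lone library being assumed to vary like the others. With the B cell markers as a covariate and all libraries kept, the family's medians were -0.21, -0.25 and -0.29 in the same order. The medians of all genes in that fit were 0.001, 0.089 and 0.036. Without D45/KO replicate 3, with 10.51 M counts the shallowest of its group, the family's medians in the main fit were -0.15, -0.11 and -0.14. Without WT/KO replicate 1 the first was -0.10, and without WT/WT replicate 1 the second was -0.11.

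Every D45/KO library was below every WT/WT library for 17 of 80 genes, beside 3.55% of all genes. It was so against D45/D45 for 20 genes, beside 2.29% of all genes, and against WT/KO for 2, beside 0.925%. The same 4 libraries enter all these counts and members move together, so the genes do not count separately. Rps14, a small subunit protein, was one of these in D45/KO against WT/KO, with a log2 fold change of -0.46 ± 0.23 and an adjusted p of 0.927 in edgeR.

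The 4 lowest log2 fold changes of the 76 genes in D45/KO against WT/WT belonged to short proteins. Rpl41, the smallest ribosomal protein with 25 residues, was at 324, 392, 414 and 623 CPM in D45/KO, against 567, 1083 and 1424 CPM in WT/WT. WT/D45 had 635, 1094 and 882 CPM, D45/D45 492, 1103 and 1154 CPM, and WT/KO 519, 415, 212, 773 and 780 CPM. D45/KO lay below all WT/D45 libraries and overlapped the other genotypes. The log2 fold change of Rpl41 was -1.23 ± 0.48 in D45/KO against WT/WT (adjusted p 0.418, edgeR) and -0.92 ± 0.45 in WT/KO against WT/WT (adjusted p 0.818). By B cell marker level it was at 212 to 635 CPM in the high and at 623 to 1424 CPM in the low libraries.

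Rpl39, a 51-residue protein at the exit tunnel for new protein chains, was at 82.0, 82.0, 44.3 and 103 CPM in D45/KO, against 120, 187 and 205 CPM in WT/WT. D45/D45 had 118, 180 and 178 CPM, WT/D45 118, 125 and 184 CPM, and WT/KO 122, 96.4, 63.9, 139 and 122 CPM. All 4 D45/KO libraries lay below all libraries of WT/WT, WT/D45 and D45/D45. Against WT/WT the log2 fold change was -1.13 ± 0.32, and its adjusted p of 0.189 in edgeR was the smallest of any member in any comparison. Against D45/D45 it was -1.03 ± 0.32 and against WT/KO -0.48 ± 0.29, with adjusted p of 1 and 0.927 in edgeR. Where B cell markers were high Rpl39 was at 44.3 to 122 CPM, and where they were low at 103 to 205 CPM. With the B cell markers as a covariate its log2 fold change against WT/WT was -1.004 ± 0.24, and the adjusted p was 0.02 in edgeR, while within the high and the low set alone it was -0.83 and -0.93 with adjusted p of 0.98 and 0.153. The first of these fits has 1 WT/WT library and the second 1 D45/KO library.

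Rps29, a 56-residue zinc-binding protein of the small subunit, was at 132, 233, 90.3 and 171.1 CPM in D45/KO, against 251, 402 and 493 CPM in WT/WT. It was at 275, 167 and 278 CPM in WT/D45 and at 230, 212 and 255 CPM in D45/D45, both overlapping WT/WT at its lowest library. WT/KO had 282, 279, 85.0, 247 and 226 CPM. The log2 fold change of Rps29 in D45/KO against WT/WT was -1.29 ± 0.40, with an adjusted p of 0.243 in edgeR. Among the low libraries alone it was -1.39 with an adjusted p of 0.0364, resting on 1 D45/KO library, and among the high ones, with 1 WT/WT library, -0.77 with an adjusted p of 1. Rpl38, with 70 residues, had a log2 fold change of -0.76 ± 0.28 and an adjusted p of 0.373 in edgeR.

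**Figure D3:**
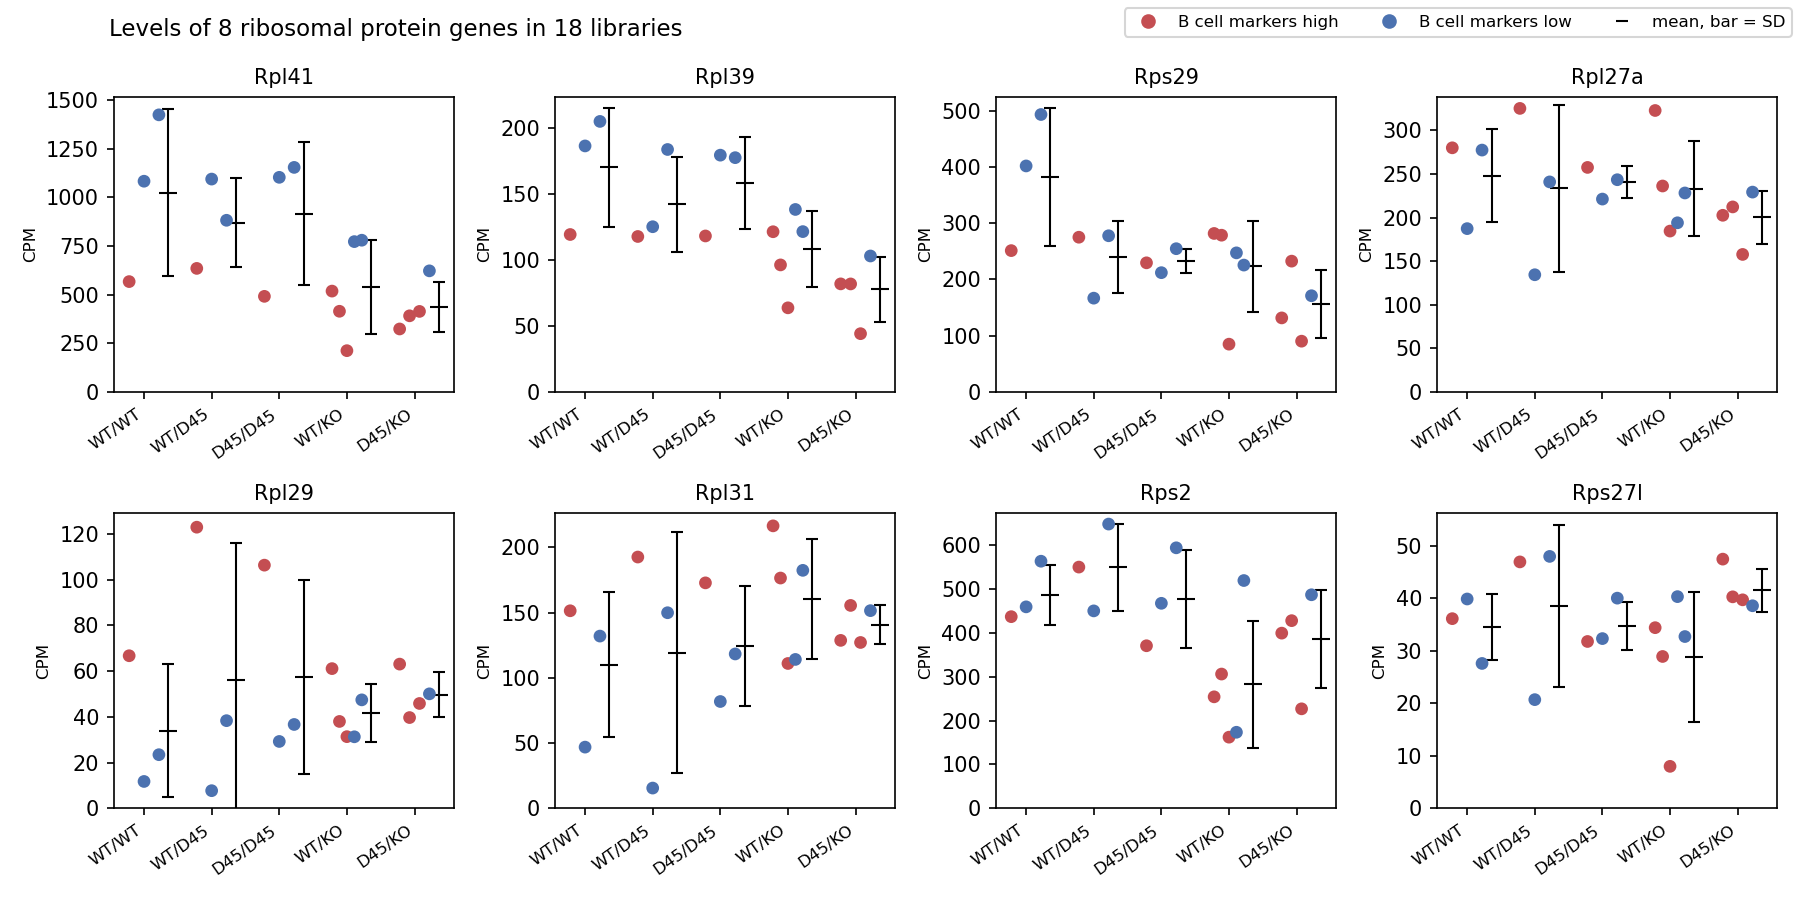
Level (y axis, CPM from 0) of 8 ribosomal protein genes in each library by genotype, with the mean and SD beside the points; red and blue points are libraries with high and low B cell markers. Rpl41 and Rpl39 are lower in red than in most blue libraries, Rpl29 runs from 31.3 to 123 CPM in red and from 7.69 to 50.03 CPM in blue libraries, and Rpl27a follows the family.

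The 9 members with at most 100 residues had a median log2 fold change of -0.70 in D45/KO against WT/WT. It was -0.21 for the 25 with 101 to 150 residues, -0.30 for 19 with 151 to 200, and -0.18 for 23 longer ones. Other genes showed a gradient in the same direction: 184 with at most 100 residues had a median of -0.24, and 7987 with over 200 had 0.14. Not every short member was low: Rps28, with 69 residues, was at 99.2, 134, 95.4 and 96.8 CPM in D45/KO and 127, 69.7 and 102 CPM in WT/WT, a log2 fold change of 0.10 ± 0.40. Across the 76 genes Pearson's r between log2 residues and log2 fold change was 0.36 and Spearman's rho 0.13. The points share all libraries. Pearson's r was also positive in the comparisons without D45/KO, at 0.31 in D45/D45, 0.34 in WT/D45 and 0.30 in WT/KO against WT/WT. Spearman's rho was 0.19, 0.18 and 0.12 in these comparisons, and the short members had medians of -0.02, -0.20 and -0.26. In D45/KO against WT/KO the 9 short members had a median of -0.30, close to -0.26 in the next class. The median was -0.253 for 151 to 200 residues and -0.191 for longer members. Pearson's r was 0.198 and Spearman's rho 0.229 in that comparison. Other genes had no such gradient there, with medians of 0.035 at most 100 residues and -0.048 over 200. In D45/KO against D45/D45 Pearson's r was 0.25 and Spearman's rho 0.06. The short members had a median of -0.351 in that comparison, beside -0.285 for those over 200 residues.

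**Figure D4:**
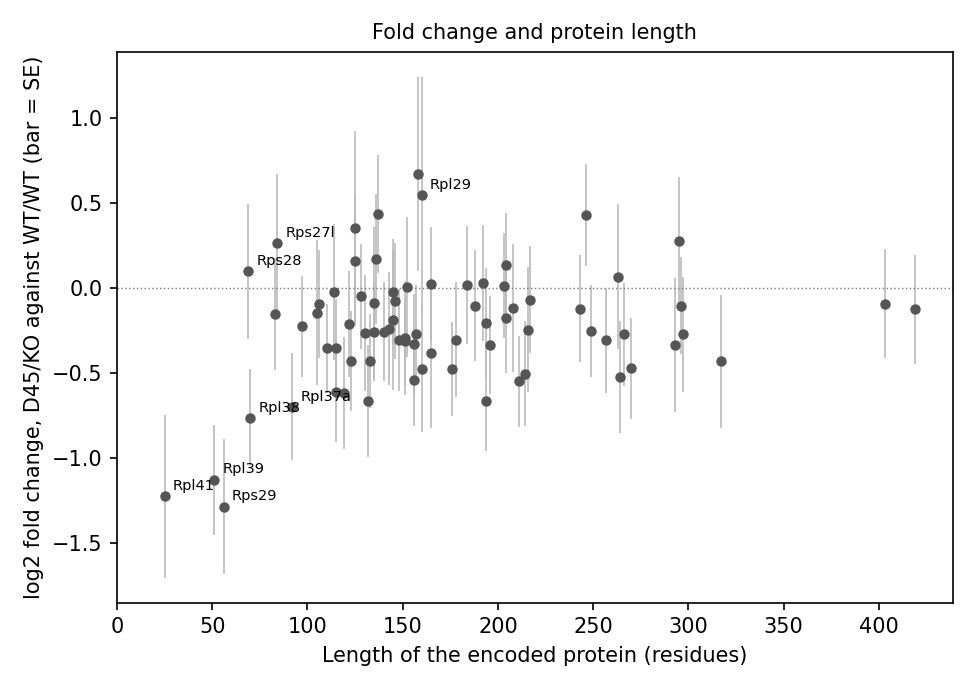
Log2 fold change in D45/KO against WT/WT (y axis, bars are SE) against the length of the encoded protein in residues (x axis) for 76 ribosomal protein genes. Rpl41, Rpl39, Rps29 and Rpl38 lie lowest at the short end, and Rps28 and Rps27l, also short, lie above 0.

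A second set of genes ran the other way between the 2 sets of libraries. Rpl29, a large subunit protein, was at 66.7, 11.7 and 23.4 CPM in WT/WT, 123, 7.69 and 38.3 CPM in WT/D45, and 106, 29.2 and 36.6 CPM in D45/D45. WT/KO had 61.1, 38.0, 31.3, 31.3 and 47.4 CPM, and D45/KO had 63.0, 39.7, 45.8 and 50.03 CPM. The first library of each of WT/WT, WT/D45 and D45/D45, the one with high B cell markers, was the highest in its group. Relative to the family, Rpl29 was higher by 0.95 on the log2 scale in the high than in the low libraries and Rpl31 by 0.60. Rpl41 was lower on the same scale, with a difference of -1.36, as were Rpl39 (-0.95), Rps2 (-0.66) and Rps29 (-0.62).

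In D45/KO against WT/WT the log2 fold change of Rpl29 was 0.55 ± 0.69 and that of Rpl31 was 0.35 ± 0.57, with adjusted p of 0.99 and 0.999 in edgeR. Rpl31 was at 15.5 CPM in WT/D45 replicate 2 and at 193 CPM in WT/D45 replicate 1, and within WT/D45 the same libraries were the lowest and the highest for Rpl29. The part of the cell mixture in these differences was not tested.

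**Figure D5:**
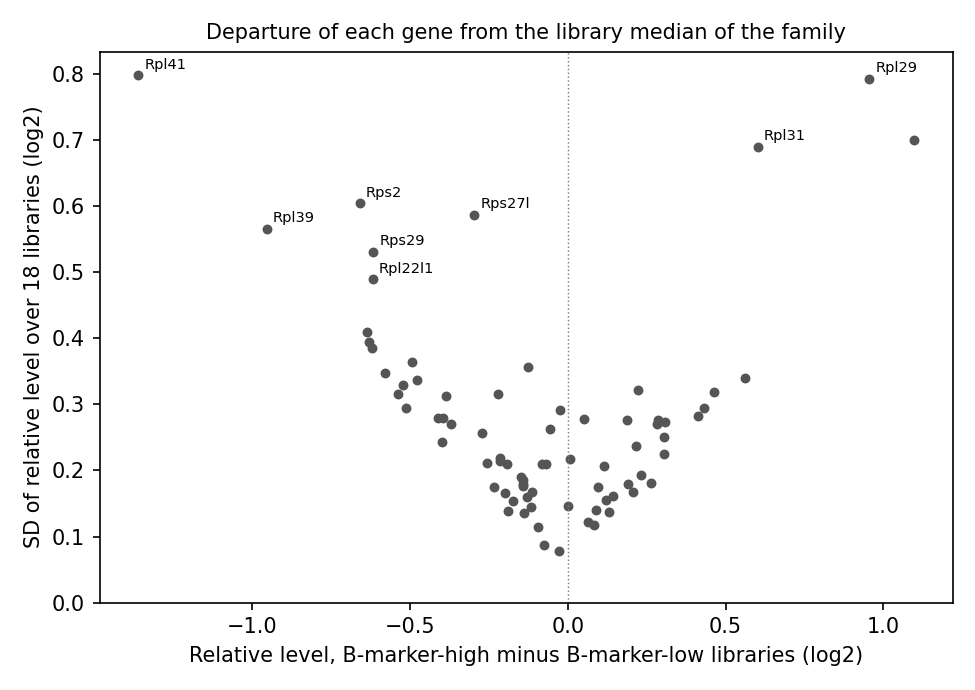
SD of each gene's level relative to the family over 18 libraries (y axis, log2) against the difference of that relative level between B-marker-high and B-marker-low libraries (x axis, log2), for 76 genes. Genes with the widest spread sit at both ends, with Rpl41 (-1.36) on the left and Rpl29 (0.95) and Rpl31 (0.60) on the right.

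Rps2, a small subunit protein at the mRNA entry side, stood out in WT/KO. Its levels there were 254, 306, 162, 174 and 520 CPM, against 437, 460 and 564 CPM in WT/WT. WT/D45 had 551, 451 and 649 CPM, D45/D45 had 371, 468 and 595 CPM, and D45/KO had 400, 428, 227 and 487 CPM. In 4 of 5 WT/KO libraries it was below every WT/WT, WT/D45 and D45/D45 library, in both sets of B cell marker level, and in the fifth it was within their range. The log2 fold change in WT/KO against WT/WT was -0.78 ± 0.37, with an adjusted p of 0.818 in edgeR. It was -0.62 within the low libraries, and -0.96 within the high ones, where WT/WT has 1 library. In D45/KO against WT/KO it was 0.45 ± 0.34, with an adjusted p of 0.927.

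Among members with a paralog, Rps27l, which is known as a p53 target, had the largest positive log2 fold change of the well-expressed members in D45/KO against WT/KO. Rps27l was at 47.5, 40.3, 39.7 and 38.6 CPM in D45/KO, against 34.4, 28.9, 7.99, 40.4 and 32.7 CPM in WT/KO, where replicate 4 lay within the D45/KO range and replicate 3 far below the rest. The log2 fold change was 0.52 ± 0.35, with an adjusted p of 0.927 in edgeR. It ran from 0.123 to 0.878 over 20 alternative fits. Mean levels of Rps27l were 34.55 CPM in WT/WT, 38.56 in WT/D45 and 34.74 in D45/D45, beside 28.89 in WT/KO and 41.54 in D45/KO. Of 14 other p53 targets tested, none was called in any comparison, and 7 were higher in D45/KO against WT/KO at an unadjusted p under 0.05, beside 2.69% of all genes. One of these was Mdm2, the p53 ubiquitin ligase, at 1.16 ± 0.30 with an adjusted p of 0.238 in edgeR.

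Rpl22l1, the paralog of Rpl22, was at 58.2, 83.0 and 76.4 CPM in D45/D45, against 52.1, 44.7, 33.7 and 53.03 CPM in D45/KO, so that these groups did not overlap. Its log2 fold change in D45/KO against D45/D45 was -0.66 ± 0.31, with an adjusted p of 1 in edgeR. Rpl22 itself had -0.10 ± 0.31 in that comparison. Rpl7l1, related to Rpl7, averaged 34.3 CPM against 477 CPM for Rpl7, and per kilobase 13.2 against 410 CPM.

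The 4 stalk genes (Rplp0, Rplp1, Rplp2 and Rpl12) had log2 fold changes of -0.52 to -0.15 in D45/KO against WT/KO and of -0.61 to -0.02 against WT/WT. Relative to the family, Rplp0 was lower in the B-marker-high than in the low libraries (-0.63 on the log2 scale) and Rpl12 was higher (0.46). Rplp0 was at 642, 623, 806 and 971 CPM in D45/KO, against 819, 936 and 1325 CPM in WT/WT. Rpl5 and Rpl11, which with 5S RNA can bind MDM2, had log2 fold changes of -0.33 ± 0.30 and -0.28 ± 0.30 in D45/KO against WT/KO. Rps19, the gene most often altered in Diamond-Blackfan anaemia, was at 136, 193, 125 and 165 CPM in D45/KO, against 292, 232, 156, 105 and 211 CPM in WT/KO. These overlapped, and its log2 fold change was -0.36 ± 0.36 with an adjusted p of 0.927 in edgeR. None of the 18 Diamond-Blackfan genes tested was called in any comparison, and their median in D45/KO against WT/KO was -0.27, close to that of the family.

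Rpsa, the laminin receptor protein of the small subunit, and Rpl28 were among the most positive in D45/D45 against WT/WT, with log2 fold changes of 0.52 ± 0.40 and 0.48 ± 0.37 and an adjusted p of 1 for both in edgeR. Rpl10, which completes the large subunit, was among the most negative with -0.31 ± 0.33. Rpl27 had 0.41 ± 0.37 in WT/KO against WT/WT. Rps4x, the X-linked small subunit protein, had 0.07 ± 0.43 in D45/KO against WT/WT. Rpl3 had -0.09 ± 0.32 in the same comparison.

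Genes that work with the ribosome did not all share the family's median in D45/KO. Of 19 other translation genes whose mRNAs carry TOP motifs (such as elongation factors), none was called, and their medians were -0.26, -0.05 and -0.05 against WT/KO, WT/WT and D45/D45. The 76 mitochondrial ribosomal protein genes, whose products serve a separate ribosome, had medians of 0.17, 0.10 and -0.04 and no calls. Of 42 ribosome assembly genes only Dkc1, the pseudouridine synthase of small nucleolar particles, was called, with a log2 fold change of -1.25 ± 0.24 and an adjusted p of 0.0219 in edgeR for D45/KO against WT/WT; the medians of this list were -0.18, 0.22 and 0.35. Of 8 snoRNA host genes none was called, with medians of -0.18, -0.57 and -0.34. Of 11 growth control genes (such as Mtor, Larp1 and Myc) none was called, with medians of -0.12, 0.08 and -0.05.

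The authors' deposited table of WT/WT over WT/KO held 76 of these genes. In the authors' deposited table their log2 fold changes ran from -0.88 to 1.15 with a median of 0.06 (all genes -0.15), and the smallest adjusted p-value was 0.853. A positive value there means higher in WT/WT, the reverse of WT/KO against WT/WT above, where the family's median was 0.02. With the direction reversed, 64 of the 76 genes had the same sign as in the edgeR fit.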

How the data were processed

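RNA came from sorted spleen erythroblasts (per the labels' protocols, by Trizol, with the Swift Rapid RNA kit). HISAT2, featureCounts, limma and mm9 are named in the submitters' processing notes. Strand setting and multi-mapping rules were not given in the sources used here. Raw counts per gene symbol were deposited for 18 libraries, 9.36 to 56.32 M per library. The authors' second table gives log2 fold changes and p-values for WT/WT over WT/KO, and its 36 per-library columns were not used.

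Counts were fitted in R 4.3.3 with edgeR 4.0.16: filterByExpr by genotype, TMM, and a quasi-likelihood fit on genotype alone over the 18 libraries. A call needed an adjusted p (Benjamini-Hochberg, 13405 genes) under 0.05. The SE of an edgeR log2 fold change is its size over the square root of F and approximate, above all near 0 counts. Log2 CPM used a prior count of 2. B-marker-high libraries had a marker mean above 3 log2 CPM. The procedure was also run on simulated counts. Genes varied independently there, without a B cell marker split, and the changes were larger than the family's medians, so it does not bear on those medians. Replicates are described as biological by the series, and no 2 columns were identical.

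Lengths and 50-base words came from GENCODE M21 (94.6% of tested genes, 79 of 80 members) and starts from RefSeq GRCm38.p6, a later build than mm9, so no file coordinate was used. The members and lists were chosen with earlier results of these data known. Named genes were fixed structural and disease members, the 3 most positive and 3 most negative per comparison with a mean of at least 2 CPM, and the 3 extremes of level and of spread. Genes of companion lists and Rps28, Rps9, Rpl9, Rpl30 and Rpl34 were named after their values were seen. Some genes are not reported here.

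Same-numbered libraries deviated together (correlation over 0.1) in all pairs of D45/D45 and of WT/D45 with WT/WT (0.119 to 0.714), where replicate 1 was the B-marker-high library of each, and in 12 of 19 pairs overall. The alternatives were DESeq2 1.42.0 scaling and Wald test, limma 3.58.1 voom with and without library weights, other filters, scaling by member counts, a replicate block, the B cell marker covariate, each marker set alone, and each library left out.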

Additional observations from a re-analysis of the deposited data

Results flagged for a closer look

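In WT/KO 2 single-library values stood apart from the rest of the group, among 78 checks of a named member in WT/KO or D45/KO (2.56%, where chance alone flags about 1 in 20). Rps29 was at 85.03 CPM in WT/KO replicate 3, while the other WT/KO libraries had 225.6 to 281.8 CPM. That library is the shallowest, with 9.36 M counts, and its Rpl41, Rps2, Rpl39 and Rps27l values (212.4, 162.3, 63.87 and 7.992 CPM) were also the lowest of WT/KO. Rpl3l was at 0.276 CPM in WT/KO replicate 2 and at 0 to 0.07775 CPM in the other WT/KO libraries, a level of a few counts.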

How the results depend on the processing

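No member was called in edgeR in any of 6 comparisons, and this held with every single library left out (0 to 0 calls) and with a replicate block (0 calls in each). In D45/KO against WT/WT, however, the number called was 1 with DESeq2 size factors (Rpl39) and 5 with the DESeq2 Wald test (Rpl41, Rps29, Rplp2, Rps9 and Rpl39). With the low-marker libraries alone, where D45/KO had 1 library, the log2 fold change of Rps29 was -1.39. The number called was 10 with limma-voom and library weights and 2 with the B cell marker covariate (Rpl41 and Rpl39). Calls also rose outside the family. Over all genes the size factors, the Wald test and the covariate called 126, 406 and 557 in that comparison, against 83 in the main fit. Library weights also gave 10 in D45/KO against D45/D45 and 2 in WT/KO against WT/WT (Rpl41 and Rps2). All these were lower. Over all genes the weighted fit called 717, 703 and 1160, against 83, 1 and 0 in edgeR. The cause was not tested. With single libraries left out, the family's medians ran from -0.34 to -0.10 in D45/KO against WT/KO, from -0.36 to -0.11 against WT/WT and from -0.33 to -0.14 against D45/D45. In D45/D45, WT/D45 and WT/KO against WT/WT they ran from -0.08 to 0.16, from -0.19 to 0.30 and from -0.14 to 0.14, changing sign without WT/WT replicate 2 in all 3 and without replicate 1 of D45/D45, WT/D45 or WT/KO in its own comparison. DESeq2 size factors moved the all-gene median from -0.15 to -0.26 in D45/KO against WT/KO and from 0.01 to -0.10 in D45/D45 against WT/WT, where the family's median changed from 0.03 to -0.09. The family's median in D45/KO against WT/KO was -0.36 with these factors and -0.39 with library weights. Limma-voom turned it negative in WT/D45 (-0.12, and -0.20 with library weights) and in WT/KO (-0.05) against WT/WT. Scaling by the family's own counts brought its D45/KO medians to -0.03, 0.04 and 0.05 by construction. Genes near 0 counts (Rps27, Rpl30, Rpl34, Rps4y2 and Rpl3l) carry no usable fold change.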
